A study of Mus musculus with 9 samples.

Results

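The hearts compared here came from 2 groups of mice that the labels call TPTN and DOX, with 3 libraries of messenger RNA in each, or 6 of the 9 libraries of the study. They were compared over the 12500 genes, of 29237 in the table, whose mean was at least 0.5 FPKM over all 9 libraries. FPKM counts sequenced fragments relative to transcript length and to all mapped fragments of the library, so it is a level per length. All animals were wild-type C57BL/6 mice, 8 to 12 weeks old, with no transgene named in the labels. DOX is the doxorubicin model group of a study of dilated cardiomyopathy, TPTN is its treated group, and control is its normal group, whose 3 libraries are shown beside the others without a test. What TPTN stands for, whether its mice also received doxorubicin, and the dose and the day of sampling are not given in the sources used here. The labels number the replicates and do not call them separate mice. A p-value below therefore rests on the spread among 3 libraries a group, which could be technical spread. Replicates below are given in the order 1, 2 and 3.

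Doxorubicin is an anthracycline used against cancer. It binds DNA and traps type II topoisomerases, and its use is limited by injury to heart muscle that can end in a dilated, weakly contracting ventricle. Heart muscle lives on mitochondrial oxidation and is served by a dense capillary network, whose endothelial cells respond to apelin and vascular endothelial growth factor (VEGF) and rest on a basement membrane of type IV collagen. Stress hormones also act on the heart: glucocorticoids bind a nuclear receptor that switches on a well-known set of genes, Per1, Fkbp5 and Tsc22d3 among them.

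Of the 12500 genes, 99 (0.792%) were higher and 308 (2.46%) lower in TPTN than in DOX at an adjusted p under 0.05 (limma, Benjamini-Hochberg adjustment over all genes tested). The changes were modest: 40 of the higher and 88 of the lower genes had an absolute log2 change of at least 0.5, and 2 and 4 of at least 1. Falling genes were led by 2 enzymes of drug and alcohol metabolism, Adh1 and Sult1a1, the matrix protease inhibitor Timp4 and the clock gene Per1. Rising genes were led by the apelin receptor Aplnr, cyclin D1 (Ccnd1) and apelin (Apln). The median log2 change of all genes was -0.01. Counted by values alone, the 3 TPTN libraries lay above the 3 DOX libraries without overlap in 1300 genes (10.4%) and below them in 1757 (14.1%).

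**Figure D1:**
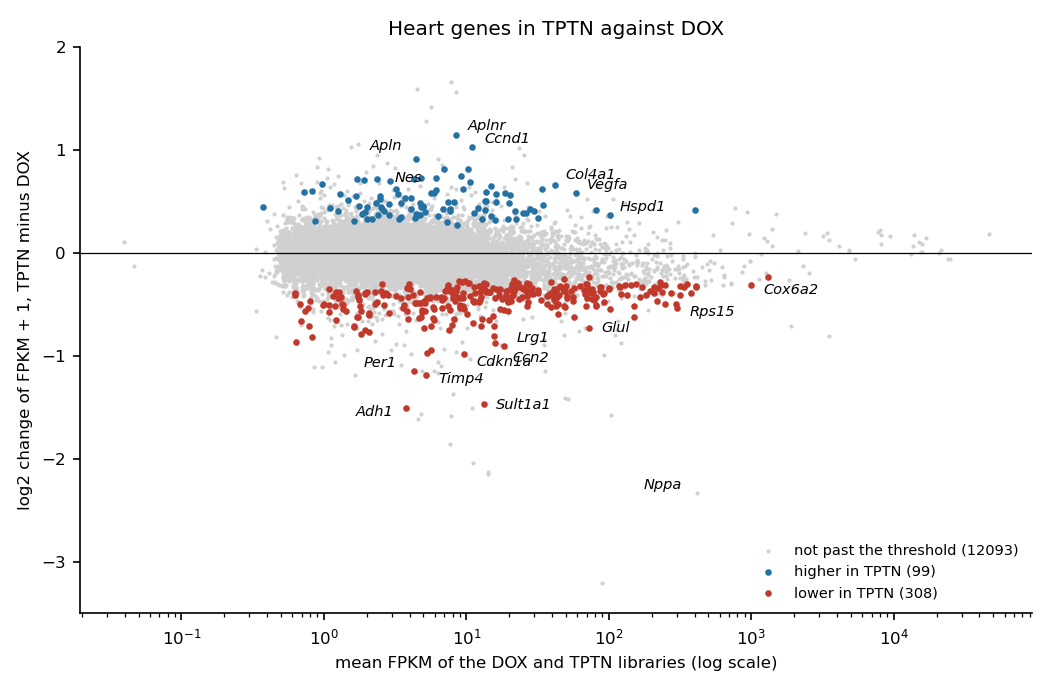
Log2 change of FPKM + 1 between TPTN and DOX (vertical axis) against the mean FPKM of the 6 libraries (horizontal axis, log scale), 1 point per gene. The 99 higher genes are blue, the 308 lower genes red and the other 12093 grey, and the red points reach much higher expression levels than the blue ones. Nppa, far below 0 and grey, did not pass the threshold.

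The balance of higher and lower calls moved with the scaling of the libraries. Of all calls, 24.3% were higher with FPKM as deposited, 34.7% with scaling by median ratios (149 higher, 280 lower), 51.5% with quantile normalization (173 and 163), and 80.8% when each library was scaled to its sum without mitochondrial genes and copies of them (542 and 129), where the median log2 change of all genes was 0.08. Mitochondrial transcripts took 44.7 to 46.2% of the FPKM sum in DOX, 48.1 to 48.7% in TPTN and 49.8 to 50.9% in control, with a further 18 to 19.7% in 7 nuclear copies. The lower genes were short, with a median longest transcript of 1410 bases against 3054 for all tested genes. The higher genes were long, at 5114 bases. Pseudogenes numbered 37 of the 308 lower genes, 0 of the 99 higher genes and 875 of all 12500 tested. The part of transcript length in the calls was not tested. The number of calls also moved with single libraries. It fell by more than 1.5 times without control replicate 3 and without any DOX or TPTN library other than DOX replicate 1. Without TPTN replicate 1, 2 or 3 it was 19 higher and 31 lower, 14 and 72, and 9 and 36. Without DOX replicate 1, 2 or 3 it was 162 and 306, 22 and 52, and 12 and 48. Without control replicate 1, 2 or 3 it was 107 and 285, 123 and 330, and 58 and 154. Of the 82 named genes past the threshold, 15 stayed past it in each of these 9 fits and 0 changed sign in any fit: Adh1, Sult1a1, Per1, Fmo2, Lrg1, Ccn2, Pim3, Car4, Bcl2l1, Sesn1, Rps16, Rps19 and Rpl13a among the falls, and Aplnr and Itga9 among the rises.

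Cell type markers showed 1 library that stood apart. Summed FPKM of atrial heart muscle markers was 2698, 360 and 260 in DOX, 172, 174 and 109 in TPTN and 152, 107 and 203 in control. In DOX replicate 1 the atrial myosin light chain gene Myl7 was at 539 FPKM and the atrial growth factor gene Bmp10 at 66.3, while in the other 8 libraries Myl7 was at most 0.889 and Bmp10 at most 0.0635. The same library had the highest sum of fibroblast markers (669 FPKM, against 395 to 491 in the other DOX and TPTN libraries) and of endocardial markers (42.8, against 16.7 to 21.1). Of the 82 named genes past the threshold, 21 were lost without that library. Leaving out any other single DOX or TPTN library lost more, 53 to 67. Among the 21 were Vegfa, Kdr, Nes, Col3a1, Col4a1, Col4a2, Fbn1, Meox1, Rflnb and Hspd1 of the rises and Tsc22d3, Lcn2, Foxo3, Id1, Bmp6, Acaa2 and Herpud1 of the falls. Ventricular markers were abundant in every library, with sums of 13333, 15292 and 14612 FPKM in DOX and 13606, 14010 and 14056 in TPTN. Endothelial markers summed to 263, 279 and 270 FPKM in DOX and 256, 292 and 275 in TPTN (exact permutation test of the sums, two-sided p = 0.9, where 3 against 3 libraries cannot go below 0.1). Macrophage markers summed to 138 to 176 and 141 to 163 FPKM. Neutrophil markers summed to 1.31, 5.17 and 2.57 FPKM in DOX and 0.56, 0.538 and 0.541 in TPTN, and adipocyte markers to 23.9, 24 and 26.6 against 18.4, 19 and 22.9. Neither overlapped (exact permutation test, two-sided p = 0.1 each, the smallest possible). Control stood at 6.61, 12.4 and 4.93 FPKM for neutrophil markers and 25.2, 25.2 and 20.3 for adipocyte markers. In each of these lists only 2 of the 10 markers reached the minimum of 0.5 FPKM. Lymphocyte markers summed to at most 5.33 FPKM in any DOX or TPTN library. Erythroid markers summed to 335, 932 and 975 FPKM in DOX and 607, 546 and 450 in TPTN, with overlap. In whole tissue, fewer cells of a type and less RNA per cell cannot be told apart.

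**Figure D2:**
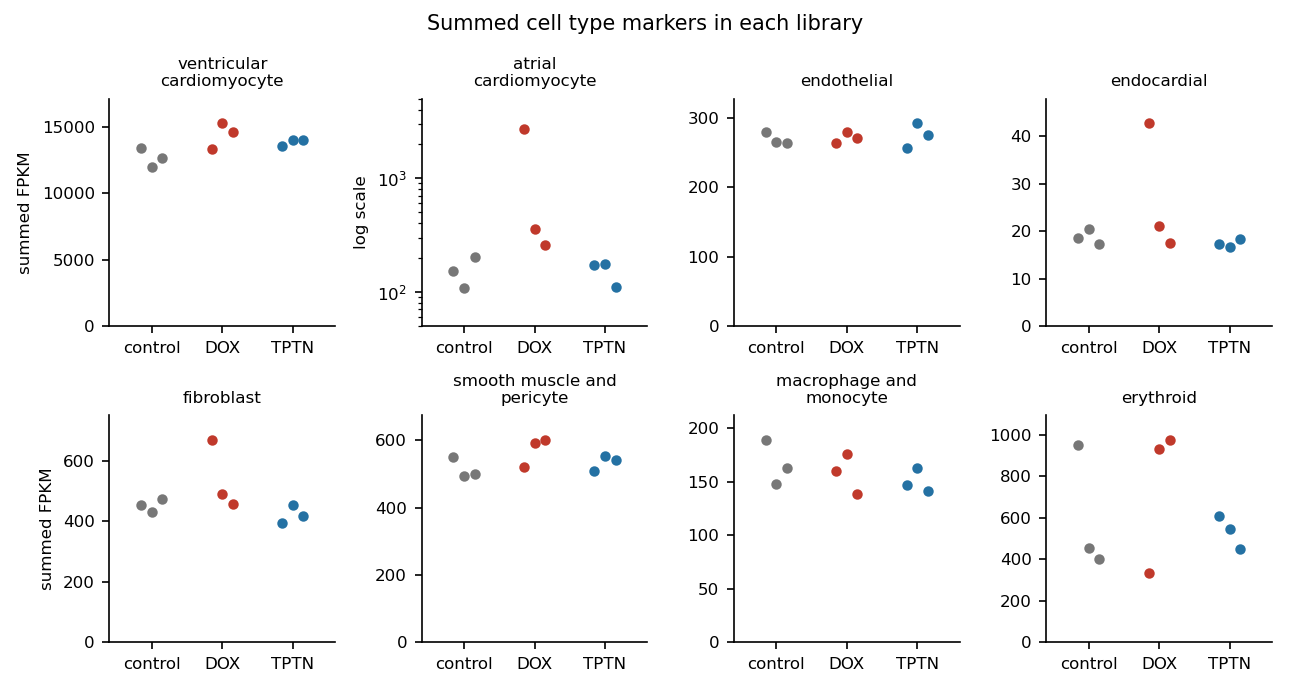
Summed FPKM of marker genes of 8 cell types in each of the 9 libraries (points, grey control, red DOX, blue TPTN). The vertical axes start at 0 except that of the atrial panel, which has a log scale. DOX replicate 1 is the high point for atrial (2698 FPKM), endocardial (42.8) and fibroblast (669) markers, and the endothelial sums of the groups overlap.

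Of the 19 glucocorticoid-responsive genes tested, 9 were lower in TPTN than DOX and 0 higher, 18 had a negative log2 change, and the median was -0.56. The 3 TPTN libraries lay below the 3 DOX libraries without overlap in 13 of the 19. Over all tested genes 2.46% were lower and 14.1% lay below DOX without overlap. The 9 are Per1, Fkbp5, Tsc22d3, Klf15, Cdkn1a, Cebpd, Fam107a, Lcn2 and Glul. The list median stayed between -0.76 and -0.50 in all settings tried, scalings included. The number past the threshold for glucocorticoid-responsive genes was 4, 2 and 4 without DOX replicate 1, 2 or 3 and 2, 2 and 1 without TPTN replicate 1, 2 or 3.

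The upstream sequences of 4 genes that the results turn on are printed to show what stands before their start sites: Per1, Fkbp5 and Sult1a1, which fell, and Apln, which rose. Each is the 250 bases before the start site in RefSeq (GRCm38.p6), 5′ to 3′ on the gene's strand. Capitals mark matches on either strand to the E-box CACGTG, to the CCAAT box, which reads ATTGG when it lies on the opposite strand, and to the GC box GGGCGG, which then reads CCGCCC, and no match overlaps another, though in Fkbp5 a GC box and a CCAAT box abut.
Per1, chr11:69098699-69098948, plus strand: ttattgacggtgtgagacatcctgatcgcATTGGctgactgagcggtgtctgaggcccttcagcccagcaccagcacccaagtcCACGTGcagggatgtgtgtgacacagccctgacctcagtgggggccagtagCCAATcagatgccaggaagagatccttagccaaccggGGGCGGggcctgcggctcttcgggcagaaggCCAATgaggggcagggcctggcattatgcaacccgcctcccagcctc
Fkbp5, chr17:28486150-28486399, minus strand: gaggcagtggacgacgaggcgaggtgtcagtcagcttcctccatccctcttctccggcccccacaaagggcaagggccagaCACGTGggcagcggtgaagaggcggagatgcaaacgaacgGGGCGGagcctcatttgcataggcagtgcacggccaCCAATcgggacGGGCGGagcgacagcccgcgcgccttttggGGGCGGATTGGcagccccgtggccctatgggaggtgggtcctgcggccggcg
Sult1a1, chr7:126676419-126676668, minus strand: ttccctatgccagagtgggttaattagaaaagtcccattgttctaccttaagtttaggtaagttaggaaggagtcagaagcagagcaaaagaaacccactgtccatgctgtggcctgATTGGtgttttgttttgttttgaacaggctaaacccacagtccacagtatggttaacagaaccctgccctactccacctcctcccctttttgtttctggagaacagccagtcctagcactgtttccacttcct
Apln, chrX:48034854-48035103, minus strand: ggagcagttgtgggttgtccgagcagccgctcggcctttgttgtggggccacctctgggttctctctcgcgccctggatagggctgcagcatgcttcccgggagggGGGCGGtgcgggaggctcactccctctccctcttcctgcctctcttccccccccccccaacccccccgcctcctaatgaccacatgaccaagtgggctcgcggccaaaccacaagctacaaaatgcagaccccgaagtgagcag
The Per1 and Fkbp5 windows each hold 1 E-box, 166 and 169 bases before the start. Those of Sult1a1 and Apln hold none. Windows of the same length were at hand for 8922 of the tested genes, and 10.1% of them hold an E-box, 40.2% a CCAAT box and 64.6% a GC box. Among the lower genes 11.7% of 205 hold an E-box, and among the higher genes 6.76% of 74. A full glucocorticoid response element of the form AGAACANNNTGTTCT is in 0 of the windows of the 205 lower and 74 higher genes and in 0.0112% of all 8922, so these short windows give nothing to compare for it. The Per1 window lies within the span of the gene in GENCODE M21 (chromosome 11, 69095217 to 69109960), whose annotation begins upstream of the RefSeq start. The Sult1a1 window overlaps the 5′ end of the annotated span of Sult1a1.

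Per1, a repressor of the circadian clock that glucocorticoids induce directly, stood at 7.54, 6.13 and 5.17 FPKM in DOX, 1.72, 2.11 and 3.1 in TPTN and 4.63, 4.99 and 5.34 in control. All TPTN libraries were below all others. The log2 change was -1.15 (SE 0.16, limma adjusted p = 0.0134), a mean 2.72 times lower in TPTN. Fkbp5, a chaperone of the glucocorticoid receptor and a standard readout of its activity, was at 2.31, 2.21 and 2.23 FPKM in DOX, 1.03, 0.941 and 0.971 in TPTN and 2.94, 4.44 and 3.31 in control. Its 3 groups did not overlap and stood in the order control, DOX, TPTN (log2 change from DOX to TPTN -0.71, SE 0.11, limma adjusted p = 0.014, past the threshold in 8 of the 9 fits that left out 1 library). Glul, glutamine synthetase, was the most abundant member that fell, from 87.4, 94.4 and 91.5 FPKM to 56.4, 51.8 and 55.9, with control at 78.2, 113 and 94.8. Tsc22d3, whose product GILZ carries part of the anti-inflammatory action of glucocorticoids, went from 19.1, 16 and 12.7 FPKM to 8.52, 9.15 and 10.2 (log2 change -0.70, limma adjusted p = 0.0453). It passed in only 2 of the 9 fits that left out 1 library and, unlike Per1, Fkbp5 and Glul, not when libraries were scaled without mitochondrial genes and copies. Klf15, a transcription factor of amino acid and fat metabolism, fell by 0.51 on the log2 scale. The receptor gene itself, Nr3c1, was at 7.6, 6.86 and 5.88 FPKM in DOX and 7.3, 9.16 and 8.24 in TPTN (log2 change 0.25, limma adjusted p = 0.177).

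Other members of this list did not pass. The metallothionein gene Mt1 was at 56.3, 59.9 and 69.6 FPKM in DOX and 38.3, 37.5 and 30.2 in TPTN (limma adjusted p = 0.0562), and Mt2 at 18.1, 19.9 and 24.6 against 11.4, 9.91 and 7.18 (0.182). Neither pair of groups overlapped. Zbtb16, another strong responder in many tissues, was at 5.7, 5.18 and 1.98 FPKM in DOX and 4.83, 2.09 and 2.33 in TPTN, both under the 10.4 to 12.4 of control. Sgk1, Klf9, Dusp1 and Errfi1 had log2 changes between -0.32 and -0.12.

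The clock genes did not move together with Per1. Of 21 tested, Per1 and Per2 passed as lower and 0 as higher, against 2.46% and 0.792% of all tested genes. The median was -0.04, which turned to 0.06 with the sum without mitochondrial genes and copies. Per2 was at 1.31, 1.61 and 1.48 FPKM in DOX and 0.994, 0.644 and 0.903 in TPTN (log2 change -0.42, limma adjusted p = 0.0386, past the threshold in 2 of the 9 fits that left out 1 library). The activators Arntl and Clock had log2 changes of 0.18 and 0.17 (limma adjusted p = 0.537 and 0.456), and the repressor Nr1d1, which is normally in opposite phase to Arntl, of 0.43 (0.108). The output gene Dbp was at 2.23, 4.95 and 7.18 FPKM in DOX and 4.53, 4.8 and 3.3 in TPTN, so the groups overlapped. The hour of sampling is not in the labels.

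Genes of drug and alcohol metabolism held the 2 largest falls among the genes past the threshold. Of 28 tested, 7 were lower and 0 higher in TPTN, against 2.46% and 0.792% of all tested genes. A negative change was seen in 26, and the median was -0.25 (-0.12 with the sum without mitochondrial genes and copies, where 4 passed). Adh1, the alcohol dehydrogenase that also oxidises retinol, was at 7.32, 6.15 and 4.73 FPKM in DOX, 1.81, 1.02 and 1.65 in TPTN and 5.69, 6.55 and 5.99 in control. Control and DOX overlapped and TPTN lay far below both, with a mean 4.07 times under that of DOX (log2 change -1.50, SE 0.15, limma adjusted p = 0.00759). Sult1a1, which adds sulfate to phenols, was at 20.4, 20.4 and 18.9 FPKM in DOX, 6.24, 6.91 and 6.45 in TPTN and 14.6, 19.1 and 16.4 in control. Its mean was 3.04 times lower in TPTN (log2 change -1.47, SE 0.09, limma adjusted p = 0.000101), and it was past the threshold in each setting tried. Fmo2, a flavin monooxygenase, fell from 9.79, 6.72 and 6.85 to 3.61, 3.59 and 3.32 FPKM (log2 change -0.95). Smaller falls were those of Cyp27a1 (-0.43), a sterol hydroxylase, the glutathione transferase genes Gstm1 and Gsta3 (-0.38 each) and the epoxide hydrolase gene Ephx1 (-0.32). For the drug and alcohol metabolism genes the count of 7 became 6, 3 and 3 without DOX replicate 1, 2 or 3 and 3 without any one of the TPTN replicates.

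**Figure D3:**
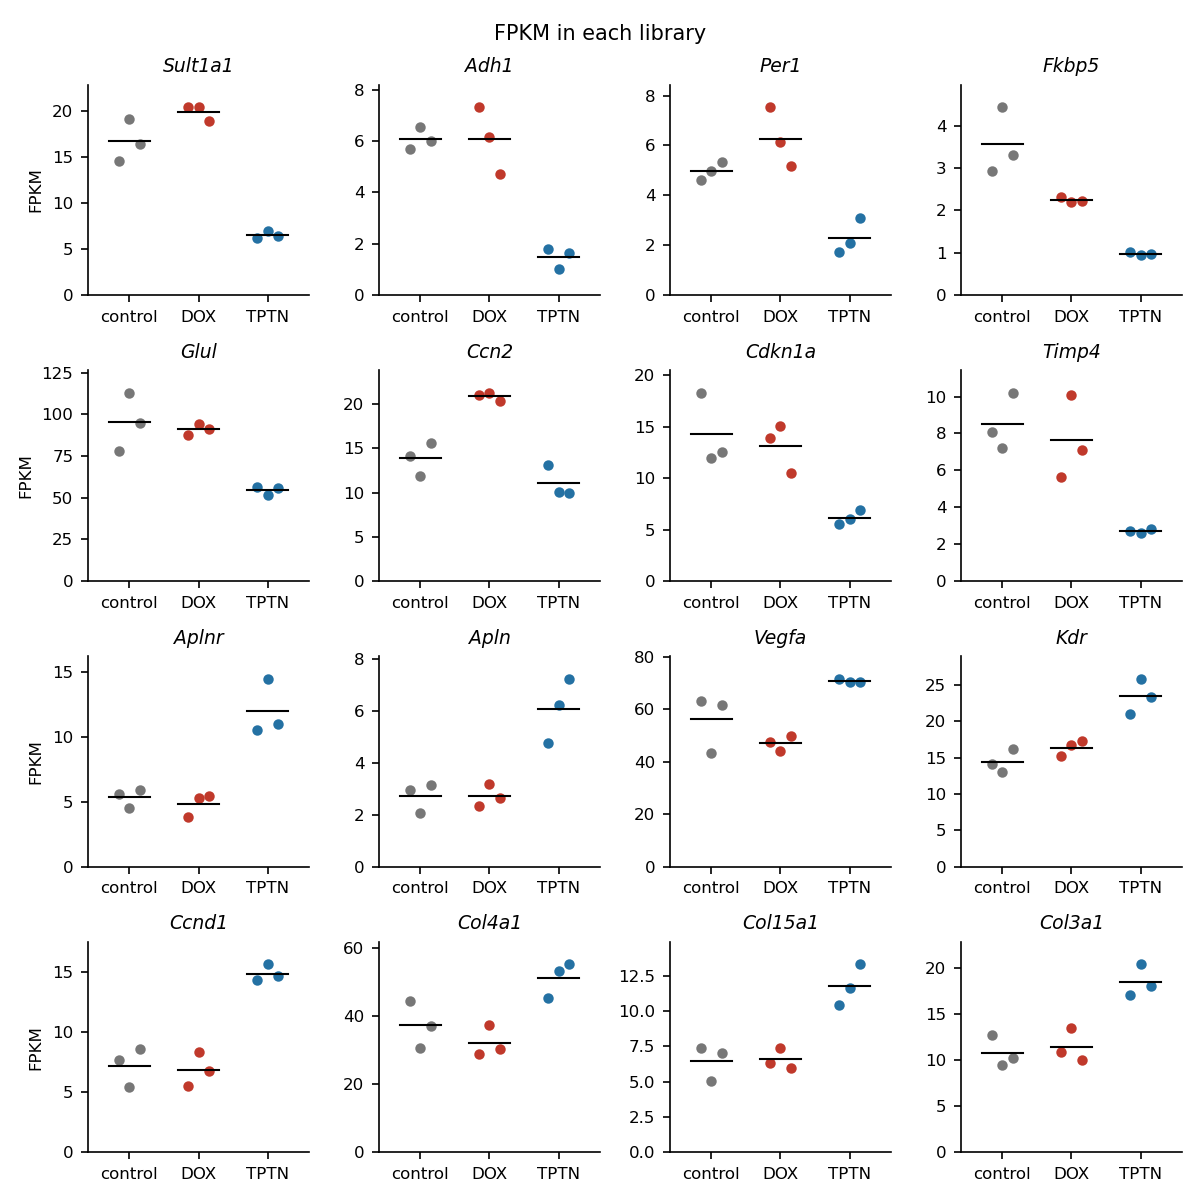
FPKM of 16 genes in each library (points, replicates 1 to 3 from left to right within a group), with the group mean as a black line and axes that start at 0. In the upper 8 panels the TPTN libraries lie below the DOX libraries, and in the lower 8 above them, without overlap. The control libraries overlap those of DOX for most genes, among them Sult1a1, Adh1, Per1, Glul, Cdkn1a, Timp4, Aplnr, Apln, Vegfa, Ccnd1, Col4a1 and Col3a1. For Ccn2 they overlap those of TPTN, and for Fkbp5 those of neither group.

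The cyclin-dependent kinase inhibitor gene Cdkn1a, which encodes p21 and is a target of p53 as well as of glucocorticoids, fell from 13.9, 15.1 and 10.5 FPKM in DOX to 5.57, 5.98 and 6.89 in TPTN, with control at 18.3, 12 and 12.5 (log2 change -0.98, SE 0.17, limma adjusted p = 0.0254). Of the 22 tested p53 target genes, 4 were lower and 0 higher, against 2.46% and 0.792% of all tested genes. The 4 were Cdkn1a, Sesn1, Fas and Ephx1. Other classical targets did not follow. Mdm2, the ubiquitin ligase that p53 induces against itself, was at 3.51, 2.66 and 2.25 FPKM in DOX and 4.71, 4.18 and 3.69 in TPTN (log2 change 0.46, limma adjusted p = 0.0816), Ccng1 had a log2 change of 0.05 and Bax of -0.11. The list median was -0.05 and turned to 0.03 with the sum without mitochondrial genes and copies. Sesn1, a sestrin that restrains mTORC1 and that FoxO factors also induce, fell from 22.4, 21.9 and 21.5 to 14.8, 14.1 and 15.1 FPKM (log2 change -0.55, SE 0.08, limma adjusted p = 0.014), and control was at 20, 24.7 and 24.6. For the p53 target genes, 4, 1 and 2 were lower without DOX replicate 1, 2 or 3 and 1, 2 and 1 without TPTN replicate 1, 2 or 3. Without DOX replicate 1, and also with the sum without mitochondrial genes and copies, some p53 targets passed as higher, 1 and 2 of them.

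FoxO targets and atrophy genes, which are switched on when insulin signalling is low, had 6 of 18 lower, 0 higher and a median of -0.29. Lower calls made up 2.46% of all tested genes. The 6 lower list members are Foxo3, Irs2, Map1lc3a, Map1lc3b, Sesn1 and Eif4ebp1. Irs2, an adaptor of the insulin receptor, was at 3.17, 1.99 and 2.52 FPKM in DOX, 1.11, 1.02 and 1.02 in TPTN and 1.74, 0.914 and 1.18 in control (log2 change -0.78, limma adjusted p = 0.0242). DOX was the group that stood apart. Eif4ebp1, a brake on cap-dependent translation, fell from 17.1, 17.8 and 18.5 to 9.88, 11.2 and 11.7 FPKM (log2 change -0.65, limma adjusted p = 0.0254). The muscle ubiquitin ligase genes of this list, Fbxo32 and Trim63, had log2 changes of -0.09 and 0.04 (limma adjusted p = 0.82 and 0.903). With quantile normalization 2 of the FoxO and muscle atrophy genes passed, and the median was -0.20. The number past the threshold was 5, 2 and 1 without DOX replicate 1, 2 or 3, and 1, 2 and 1 without TPTN replicate 1, 2 or 3. Among autophagy and lysosome genes 3 of 26 were lower, the ATG8 family genes Map1lc3a, Map1lc3b and Gabarap, at log2 changes of -0.38, -0.30 and -0.37, and 0 with quantile normalization. The list median of -0.13 was 0.00 with the sum without mitochondrial genes and copies.

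Of the 15 tested genes for apelin, VEGF, the angiopoietins and their receptors, 5 were higher and 0 lower in TPTN. Shares over all tested genes were 0.792% and 2.46%. The list median was 0.22 (0.28 with the sum without mitochondrial genes and copies). Both the ligand and the receptor of the apelin system were among the 5. Apln, a peptide hormone made by growing endothelium, was at 2.34, 3.2 and 2.66 FPKM in DOX, 4.76, 6.25 and 7.25 in TPTN and 2.94, 2.05 and 3.14 in control (log2 change 0.92, SE 0.15, limma adjusted p = 0.0236). Aplnr, its G protein-coupled receptor, was at 3.83, 5.26 and 5.43 FPKM in DOX, 10.5, 14.5 and 11 in TPTN and 5.61, 4.54 and 5.88 in control (log2 change 1.15, SE 0.14, limma adjusted p = 0.0085). For both genes DOX and control overlapped and TPTN stood above, with means 2.23 and 2.47 times those of DOX. Aplnr passed in all 9 fits that left out 1 library and Apln in 6.

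Vegfa, the main growth factor of blood vessels, was at 47.6, 44.2 and 49.7 FPKM in DOX, 71.8, 70.5 and 70.6 in TPTN and 63.4, 43.5 and 61.8 in control (log2 change 0.58, SE 0.12, limma adjusted p = 0.0354). Its receptor gene Kdr rose from 15.2, 16.7 and 17.3 to 21, 25.9 and 23.4 FPKM (log2 change 0.48), and the coreceptor gene Nrp2 from 2.37, 2.86 and 2.2 to 3.59, 4.58 and 4.34 (0.57). TPTN lay above DOX and control for Kdr and Nrp2. The other receptor genes Flt1 and Flt4 had log2 changes of 0.11 and 0.25, and the ligand genes Vegfb and Vegfc of -0.12 and -0.31, none past the threshold. Angpt1, Angpt2, Tek and Tie1 were also not past it, with log2 changes from -0.13 to 0.22. For the apelin, VEGF and angiopoietin genes the 5 rises became 3, 3 and 1 without DOX replicate 1, 2 or 3 and 2, 1 and 1 without TPTN replicate 1, 2 or 3, with Aplnr among them in each fit.

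Among genes of endothelial growth and tip cells, which lead new sprouts, 4 of 16 were higher and 0 lower (median 0.23). The 4, against 0.792% higher over all tested genes, were Apln, Nes, Col4a1 and Col4a2. Nestin, an intermediate filament of young endothelial and progenitor cells encoded by Nes, rose from 4.42, 5.57 and 4.46 to 8.61, 9.41 and 9.56 FPKM (log2 change 0.81, SE 0.18, limma adjusted p = 0.0458), with control at 5.81, 2.83 and 4.32. The Notch ligand gene Dll4, which restrains sprouting, had a log2 change of 0.08. The general endothelial genes Pecam1 and Cdh5 had log2 changes of -0.02 and 0.08 (limma adjusted p = 0.925 and 0.692), and of 15 endothelial markers only Kdr passed. Without DOX replicate 3, TPTN replicate 2 or TPTN replicate 3, 0 of the endothelial growth and tip cell genes passed, and 1 without DOX replicate 1 or TPTN replicate 1.

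Basement membrane genes had 4 of 17 higher and 0 lower, with a median of 0.18, and 10 of the 17 lay above DOX in all TPTN libraries, against 0.792% higher and 10.4% above without overlap over all tested genes. The 4 were Col15a1, Col4a1, Col4a2 and Hspg2. Col4a1 and Col4a2 encode the chains of the main type IV collagen, and their start sites lie 21 bases apart on opposite strands of chromosome 8. Col4a1 was at 28.7, 37.3 and 30.2 FPKM in DOX, 45.1, 53.1 and 55.1 in TPTN and 44.5, 30.7 and 37 in control (log2 change 0.66, SE 0.14, limma adjusted p = 0.0392). Col4a2 ran in parallel at 23.9, 30.8 and 25.5, then 36.5, 42.2 and 45.8, then 35.4, 26.7 and 30.3 (0.62, SE 0.13, limma adjusted p = 0.0329). DOX replicate 2 was the highest DOX library for both genes and TPTN replicate 1 the lowest TPTN library. Col15a1, a collagen at the outer face of capillary basement membranes, rose from 6.35, 7.4 and 5.99 to 10.4, 11.6 and 13.3 FPKM (log2 change 0.75), and the perlecan gene Hspg2 from 17.2, 17.4 and 13.8 to 22.4, 23.5 and 26.9 (0.56). The nidogen genes Nid1 and Nid2 and the laminin gene Lamc1 had log2 changes of 0.33, 0.32 and 0.31 and did not pass (limma adjusted p = 0.1, 0.0725 and 0.132).

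Of the 33 fibrillar collagen and interstitial matrix genes tested, 6 were higher and 0 lower, against 0.792% and 2.46% of all tested genes. A positive change was seen in 24, and the median was 0.20. The 6 were Col3a1, Col5a1, Col6a3, Fbn1, Loxl1 and Loxl2. Col3a1, the type III collagen of distensible tissue, was at 10.9, 13.5 and 10 FPKM in DOX, 17.1, 20.4 and 18.1 in TPTN and 12.7, 9.44 and 10.2 in control (log2 change 0.65, SE 0.12, limma adjusted p = 0.0282). Col1a1, the type I collagen chain that dominates scars, was at 7.75, 6.97 and 5.21 FPKM in DOX and 9.04, 9.37 and 9.33 in TPTN without overlap, but did not pass (log2 change 0.44, limma adjusted p = 0.0724). Postn, a marker of activated fibroblasts, had a log2 change of 0.40 (limma adjusted p = 0.0798). Not every matrix gene pointed the same way: the small proteoglycan gene Dcn was at 71.6, 54.6 and 49.1 FPKM in DOX and 41.1, 47.8 and 41.6 in TPTN (log2 change -0.40, limma adjusted p = 0.0954), and Thbs4 had a log2 change of -0.51 (0.0612). Summed fibroblast markers stood at 395, 454 and 416 FPKM in TPTN and 669, 491 and 456 in DOX (exact permutation test, two-sided p = 0.1, the smallest that 3 against 3 libraries allow). The part of fibroblast content in the matrix genes was not tested.

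With the sum without mitochondrial genes and copies, 8 of the basement membrane genes (median 0.29) and 10 of the fibrillar collagen and interstitial matrix genes (median 0.30) were higher, and with only DOX and TPTN in the fit 4 and 3. The calls also moved with single libraries. Without DOX replicate 1, which holds the atrial signal, 2 basement membrane genes and 4 fibrillar collagen and interstitial matrix genes passed. Leaving out DOX replicate 2 gave 2 and 2. Without DOX replicate 3, or without any one of the TPTN replicates, 0 of either list passed in limma. The medians kept their sign in each of these fits, at 0.16 to 0.27 for basement membrane genes and 0.09 to 0.27 for fibrillar collagen and interstitial matrix genes.

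Among 17 matrix proteases and inhibitors 1 gene passed, against 0.792% higher and 2.46% lower over all tested genes. That gene, Timp4, the tissue inhibitor of metalloproteinases most typical of heart muscle, fell. It was at 5.66, 10.1 and 7.09 FPKM in DOX, 2.7, 2.6 and 2.84 in TPTN and 8.09, 7.23 and 10.2 in control (log2 change -1.18, SE 0.17, limma adjusted p = 0.017). Timp1 was at 2.13, 3.32 and 1.02 FPKM in DOX and 1.38, 1.7 and 0.939 in TPTN, with overlap. Timp3 had a log2 change of -0.43 (limma adjusted p = 0.0761) and the collagenase-activating protease gene Mmp3 of -0.85 (0.0725). Timp4 passed in 5 of the 9 fits that left out 1 library. It was lost without DOX replicate 3 or any TPTN replicate. Some members of the list passed as higher in other settings. They numbered 2 with only DOX and TPTN in the fit and 2 with the sum without mitochondrial genes and copies. With quantile normalization, or without any one control replicate, 1 did.

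In the TGF-beta pathway, which drives fibrosis and is often read through its targets, 3 of 20 genes were lower and 0 higher. The 3, against 2.46% lower over all tested genes, were Ccn2, Id1 and Bmp6. Ccn2, connective tissue growth factor, was at 21.1, 21.3 and 20.4 FPKM in DOX, 13.1, 10.1 and 9.9 in TPTN and 14.1, 11.9 and 15.6 in control (log2 change -0.87, SE 0.11, limma adjusted p = 0.0085). The DOX libraries stood above both other groups, and the call held in all 9 fits that left out 1 library. Its relative Ccn1 was at 9.72, 8.2 and 11.9 FPKM in DOX and 11.8, 17.2 and 12.5 in TPTN (log2 change 0.44, limma adjusted p = 0.211). The ligand genes Tgfb1, Tgfb2 and Tgfb3 and the receptor gene Tgfbr1 had log2 changes from -0.12 to 0.09. Id1, a target of bone morphogenetic proteins, fell by 0.43 on the log2 scale and Bmp6, one such ligand, by 0.47. Both were lost with median ratios, with quantile normalization and with the sum without mitochondrial genes and copies, under which Ccn2 was the 1 gene of the list to pass. The list median of -0.07 turned to 0.05 without DOX replicate 1 and to 0.01 with the sum without mitochondrial genes and copies.

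Ccnd1 was the 1 cell cycle gene past the threshold that rose. It was at 5.5, 8.35 and 6.78 FPKM in DOX, 14.3, 15.6 and 14.6 in TPTN and 7.67, 5.39 and 8.56 in control, so that TPTN lay well above both other groups (log2 change 1.03, SE 0.16, limma adjusted p = 0.0222). It passed in 5 of the 9 fits that left out 1 library. The related cyclin genes Ccnd2 and Ccnd3 had log2 changes of 0.29 and 0.05. The helicase genes of replication Mcm2, Mcm3, Mcm5 and Mcm6 were low, at 0.466 to 1.51 FPKM, with log2 changes of 0.19 to 0.31 and none past the threshold. Of the 18 tested genes of this list, Ccnd1 was higher and Cdkn1a lower, against 0.792% and 2.46% of all tested genes. A positive change was seen in 10 of the 18. With median ratios 2 passed as higher, and with the sum without mitochondrial genes and copies 4. Markers of dividing cells such as Mki67, Top2a and Cdk1 lay under the expression minimum.

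Cytosolic ribosomal protein genes made up the largest block of falls. Of 76 tested, 44 were lower and 0 higher, against 2.46% and 0.792% of all tested genes. All 76 had a negative change, from -0.54 to -0.07, and the median was -0.34. Their summed FPKM was 6382, 6669 and 6701 in DOX, 4955, 5337 and 5105 in TPTN and 5370, 4654 and 5120 in control (exact permutation test of TPTN against DOX, two-sided p = 0.1, the smallest possible). The DOX libraries lay above the other 6, and TPTN and control overlapped. Rpl13a was at 119, 128 and 117 FPKM in DOX and 77.6, 84.5 and 86.8 in TPTN (log2 change -0.54, SE 0.08, limma adjusted p = 0.0134), and Rps16 at 84.2, 91.2 and 89.5 against 62.6, 66.5 and 64.8 (-0.44, SE 0.06, limma adjusted p = 0.00952). The number lower was 41 with median ratios, 13 with quantile normalization and 21 with the sum without mitochondrial genes and copies, and the median stayed negative, at -0.33, -0.20 and -0.21. For cytosolic ribosomal protein genes it was 35, 4 and 6 without DOX replicate 1, 2 or 3 and 4, 12 and 4 without TPTN replicate 1, 2 or 3. These genes have many processed pseudogenes, so reads may be split between copies and single values are uncertain.

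Nuclear genes of the respiratory chain had 13 of 82 lower and 0 higher, against 2.46% and 0.792% of all tested genes. Their median was -0.23, with 80 negative changes. Cox6a2, the heart and muscle form of a cytochrome c oxidase subunit, was at 1093, 1107 and 1119 FPKM in DOX, 854, 899 and 919 in TPTN and 926, 873 and 900 in control (log2 change -0.31, SE 0.05, limma adjusted p = 0.0236). Uqcr10 of complex III fell from 301, 340 and 402 to 239, 260 and 236 FPKM (-0.49), Ndufa7 of complex I from 58.6, 66.3 and 69.5 to 42.1, 49.9 and 48 (-0.47). Slc25a4, which exchanges ADP and ATP across the inner membrane, fell from 1366, 1406 and 1476 to 1169, 1235 and 1206 FPKM (-0.23, limma adjusted p = 0.0438), though only 1 of the 9 fits that left out 1 library kept that call. The 13 mitochondrially encoded mRNA genes did not follow: 0 passed in limma and 4 had an unadjusted p under 0.05. Over all 12500 tested genes, 972 rising and 1609 falling ones had such a p. The median of the 13 was 0.06 (0.00 with quantile normalization). It was 0.20 with the sum without mitochondrial genes and copies, where 4 passed as higher. mt-Co1, for instance, was at 44065, 44080 and 42523 FPKM in DOX, 48502, 53033 and 46624 in TPTN and 56255, 54782 and 56132 in control. The number of nuclear respiratory chain genes lower was 8 with median ratios, 3 with quantile normalization (median -0.06) and 7 with the sum without mitochondrial genes and copies (median -0.10). It was 28, 0 and 1 without DOX replicate 1, 2 or 3 and 0, 1 and 0 without TPTN replicate 1, 2 or 3.

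**Figure D4:**
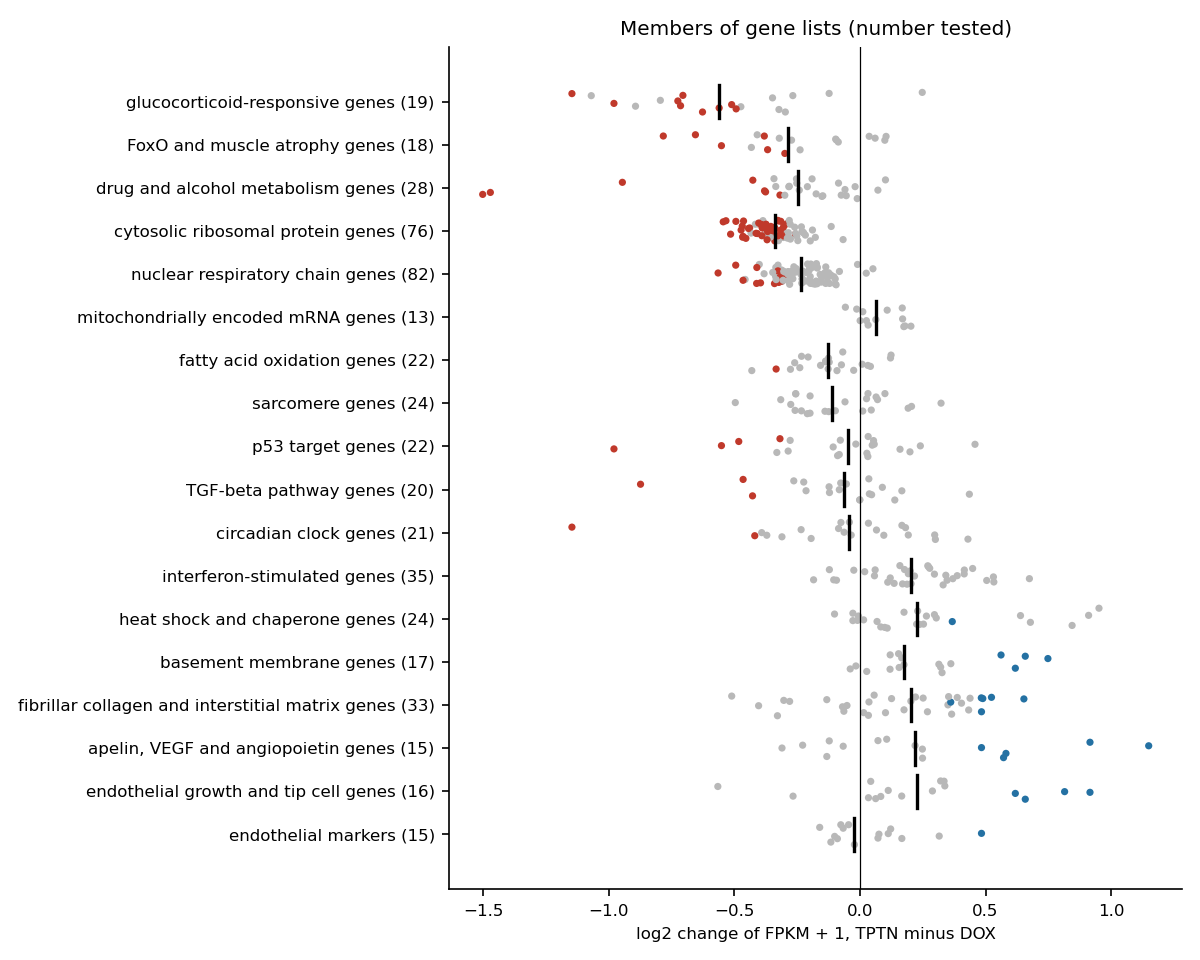
Log2 change of FPKM + 1, TPTN minus DOX (horizontal axis), of each tested member of 18 gene lists (points, spread vertically for legibility), with the number tested in brackets and the list median as a black bar. Blue members were higher and red members lower at an adjusted p under 0.05. The glucocorticoid-responsive median is at -0.56, all 76 ribosomal protein genes lie left of 0, and the matrix, apelin and tip cell medians lie right of it.

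Metabolic and contractile lists held few calls, where 0.792% of all tested genes were higher and 2.46% lower. Of 22 fatty acid oxidation genes Acaa2, the last thiolase of the cycle, was lower (474, 437 and 462 FPKM in DOX, 335, 365 and 390 in TPTN, log2 change -0.33, limma adjusted p = 0.0303). Acaa2 was lost under quantile normalization, with the sum without mitochondrial genes and copies and with only DOX and TPTN in the fit. It passed in 2 of the 9 fits that left out 1 library. Of 25 genes of the tricarboxylic acid cycle and pyruvate entry 0 passed in limma and 9 had an unadjusted p under 0.05. Over all 12500 tested genes, 972 rising and 1609 falling ones had such a p. Hk2, the insulin-regulated hexokinase, was the 1 of 27 glycolysis and glycogen genes past the threshold and rose from 25.9, 25.3 and 25.3 to 33.1, 33.8 and 35.9 FPKM (log2 change 0.41, SE 0.07, limma adjusted p = 0.0195). The medians of the fatty acid oxidation, tricarboxylic acid cycle and glycolysis lists were -0.13, -0.09 and -0.06, and all 3 turned positive, to 0.01 to 0.07, with the sum without mitochondrial genes and copies and with quantile normalization.

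Of 24 sarcomere genes and 20 calcium handling genes, 0 and 0 passed in limma, and 12 and 4 had an unadjusted p under 0.05. Of all 12500 tested genes, 0.792% were higher and 2.46% lower. An unadjusted limma p under 0.05 was seen in 972 of them with a positive and 1609 with a negative change. With the sum without mitochondrial genes and copies 2 sarcomere and 4 calcium handling genes passed as higher, and with quantile normalization 0 and 2. Without DOX replicate 1, 4 sarcomere genes passed as lower and 2 calcium handling genes as higher. The myosin heavy chain gene Myh6 was at 2461, 2173 and 2018 FPKM in DOX and 2554, 2342 and 2688 in TPTN (log2 change 0.19, limma adjusted p = 0.206), and Myh7, its fetal counterpart, at 81.3, 70.4 and 77.3 against 72, 65.6 and 69.8 (-0.14, limma adjusted p = 0.406). Atp2a2, the calcium pump of the sarcoplasmic reticulum, was at 1401, 1267 and 1211 FPKM in DOX and 1479, 1560 and 1520 in TPTN, without overlap and not past the threshold (log2 change 0.24, limma adjusted p = 0.085). The ryanodine receptor gene Ryr2 was likewise apart, at 27.3, 22.7 and 18.6 against 30.5, 31.5 and 31.6 FPKM (0.45, limma adjusted p = 0.0577). Of 24 ion channel genes only the sodium channel subunit gene Scn4b passed. It was at 3.05, 4.79 and 5.33 FPKM in DOX, 8.44, 7.99 and 7.01 in TPTN and 8.26, 8.87 and 6.84 in control, so that TPTN and control overlapped and DOX lay below (log2 change 0.73, limma adjusted p = 0.0403). Scn4b was lost with median ratios and with quantile normalization and passed in 2 of the 9 fits that left out 1 library. Myh7b, a slow myosin gene, rose from 8.75, 6.85 and 8.03 to 14.2, 14.2 and 11.6 FPKM (log2 change 0.69).

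Natriuretic peptide genes, the usual markers of a strained heart, did not pass. Nppa was at 1736, 288 and 195 FPKM in DOX, 118, 120 and 52.6 in TPTN and 94, 51.2 and 147 in control (log2 change -2.33, SE 0.91, limma adjusted p = 0.22). The DOX and TPTN libraries did not overlap, but the highest value is that of DOX replicate 1, the library with atrial markers. Atrial muscle is a main source of Nppa, and the part of atrial tissue in its value was not tested. Nppb was at 106, 288 and 439 FPKM in DOX and 271, 324 and 188 in TPTN (log2 change 0.10, limma adjusted p = 0.954). Acta1 and Ankrd1, other genes of the stress response, had log2 changes of 0.49 and -0.56 and limma adjusted p of 0.549 and 0.185. Of the 18 genes listed for doxorubicin cardiomyopathy and heart failure, 16 could be tested, and Ccn2 and Cdkn1a were lower and Col3a1 higher. Shares over all tested genes were 2.46% lower and 0.792% higher. Gdf15 and Top2a lay under the expression minimum. Top2b, the topoisomerase of non-dividing cells that doxorubicin traps, was at 3.89, 3.13 and 2.84 FPKM in DOX and 3.54, 3.99 and 3.98 in TPTN (log2 change 0.18, limma adjusted p = 0.309).

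The remaining large changes fell outside the lists above. Lrg1, a secreted leucine-rich glycoprotein, was at 22.6, 24.2 and 25.5 FPKM in DOX, 11.9, 12.1 and 13.4 in TPTN and 22.2, 26.7 and 20.1 in control (log2 change -0.90, SE 0.10, limma adjusted p = 0.00759). Pim3, a survival kinase, fell from 22.4, 20.4 and 17.7 to 9.68, 11.6 and 11.9 FPKM, and Car4, a carbonic anhydrase anchored to the capillary surface, from 9.02, 9.18 and 10.9 to 5.32, 5.07 and 5.67. Bcl2l1, which encodes the anti-apoptotic Bcl-xL, fell from 6.73, 7.66 and 7.23 to 3.58, 3.93 and 4.57 FPKM (log2 change -0.71, limma adjusted p = 0.0085) and was the 1 of 17 Bcl2 family and apoptosis genes past the threshold. Shares over all tested genes were 0.792% higher and 2.46% lower. For Lrg1, Pim3 and Car4 control overlapped DOX, and TPTN lay below both. Nr4a1, an immediate early gene for a nuclear receptor, was at 7.62, 6.82 and 7.72 FPKM in DOX, 3.11, 3.2 and 3.49 in TPTN and 3.15, 1.39 and 2.04 in control (log2 change -0.97, limma adjusted p = 0.0236), and was the 1 of 18 immediate early genes to pass. Dpep1, a membrane dipeptidase, fell from 23.2, 16.5 and 18.9 to 10.2, 12.1 and 12.2 FPKM.

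Among the other rises, the integrin subunit gene Itga9 went from 2.98, 3.9 and 3.21 to 6.3, 6.2 and 6.07 FPKM, with control at 4.04, 3.79 and 4.3 (log2 change 0.73, SE 0.08, limma adjusted p = 0.00759). The kinase gene Wnk1, which regulates ion cotransport, went from 11.6, 11.2 and 9.5 to 15.9, 17.5 and 16.6 FPKM (0.59), the filamin-binding gene Rflnb from 6.53, 8.21 and 7.09 to 10.1, 12.1 and 13 (0.62) and the homeobox gene Meox1 from 4.4, 5.06 and 4.52 to 7.39, 8.69 and 6.95 (0.61). Trp53inp2, a regulator of autophagy, rose from 71.1, 73.8 and 63.8 to 91.9, 93.1 and 94.2 FPKM (0.42). The mitochondrial chaperonin gene Hspd1 rose from 87.7, 93.4 and 83.6 to 113, 121 and 109 FPKM (0.37, limma adjusted p = 0.0354). It was the 1 heat shock and chaperone gene of 24 to pass, where 0.792% of all tested genes were higher. Of the 24, 14 lay above DOX in all TPTN libraries (10.4% of all tested genes did), and the list median was 0.23. The count for heat shock and chaperone genes was 3 with quantile normalization, 4 with only DOX and TPTN in the fit, 5 with the sum without mitochondrial genes and copies, 6 without control replicate 1, and 0 in limma without any one DOX or TPTN library. Hsph1, for example, was at 3.83, 4.61 and 3.91 FPKM in DOX, 8.4, 9.18 and 8.23 in TPTN and 10.6, 4.61 and 5.19 in control (log2 change 0.91, limma adjusted p = 0.0862).

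Most other lists held at most 1 call, where 0.792% of all tested genes were higher and 2.46% lower. Among insulin and IGF pathway genes, 2 of 18 were lower, Irs2 and the binding protein gene Igfbp6 (log2 change -0.43). Of 18 fasting and PPAR-responsive genes 0 passed in limma, with 3 at an unadjusted p under 0.05. Over all 12500 tested genes, 972 rising and 1609 falling ones had such a p. Of 18 hypoxia-responsive genes Vegfa and Hk2 were higher. Egln3, an oxygen-sensing prolyl hydroxylase, was at 11.8, 16.8 and 17.3 FPKM in DOX and 29.6, 35.2 and 30.7 in TPTN without overlap and did not pass (log2 change 1.02, limma adjusted p = 0.0996). Single calls were the rises of Mlxipl (0.35) among lipogenic genes, Notch3 (0.37) among Notch genes and Pde4b (0.33) among adrenergic signalling genes. These 3 passed in 1, 3 and 2 of the 9 fits that left out 1 library, and Mlxipl was lost with quantile normalization. Single falls were those of Herpud1 (-0.51) among endoplasmic reticulum stress genes, Fis1 (-0.39) among mitophagy, fusion and fission genes, Psma7 (-0.41) among 37 proteasome subunit genes and Mrpl20 (-0.34) among 78 mitochondrial ribosomal protein genes. They passed in 2, 4, 4 and 2 of the same 9 fits. Herpud1, Fis1 and Mrpl20 were lost with quantile normalization and with the sum without mitochondrial genes and copies, and Herpud1 and Mrpl20 also with median ratios.

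Immune lists held few calls, where 0.792% of all tested genes were higher and 2.46% lower. Of 35 interferon-stimulated genes 0 passed in limma and 9 had an unadjusted p under 0.05. Over all 12500 tested genes, 972 rising and 1609 falling ones had such a p. The interferon list median was 0.20, and 30 of the 35 had a positive change. Of the 14 antigen presentation and 16 complement genes 0 and 0 passed, with 0 and 5 at an unadjusted p under 0.05. Lcn2, an acute phase protein gene that glucocorticoids also induce, was the 1 of 15 NF-kappaB pathway and inflammation genes to pass and fell from 1.01, 1.26 and 0.911 to 0.302, 0.583 and 0.317 FPKM. The neutrophil gene S100a9 was at 0.83, 2.3 and 1.51 FPKM in DOX, 0.0779, 0.267 and 0.112 in TPTN and 3.54, 5.59 and 2.29 in control (log2 change -1.11, limma adjusted p = 0.0783), so TPTN lay below both other groups, and DOX replicate 2 lay just above the lowest control library. Of 20 antioxidant and NRF2 target genes, Sod1 was lower, at 36.4, 34.2 and 37.4 FPKM in DOX, 25, 28.4 and 28.5 in TPTN and 28.8, 30.1 and 30.4 in control (log2 change -0.39, limma adjusted p = 0.0238), while Hmox1 and Nqo1 had log2 changes of 0.05 and -0.09.

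**Figure D5:**
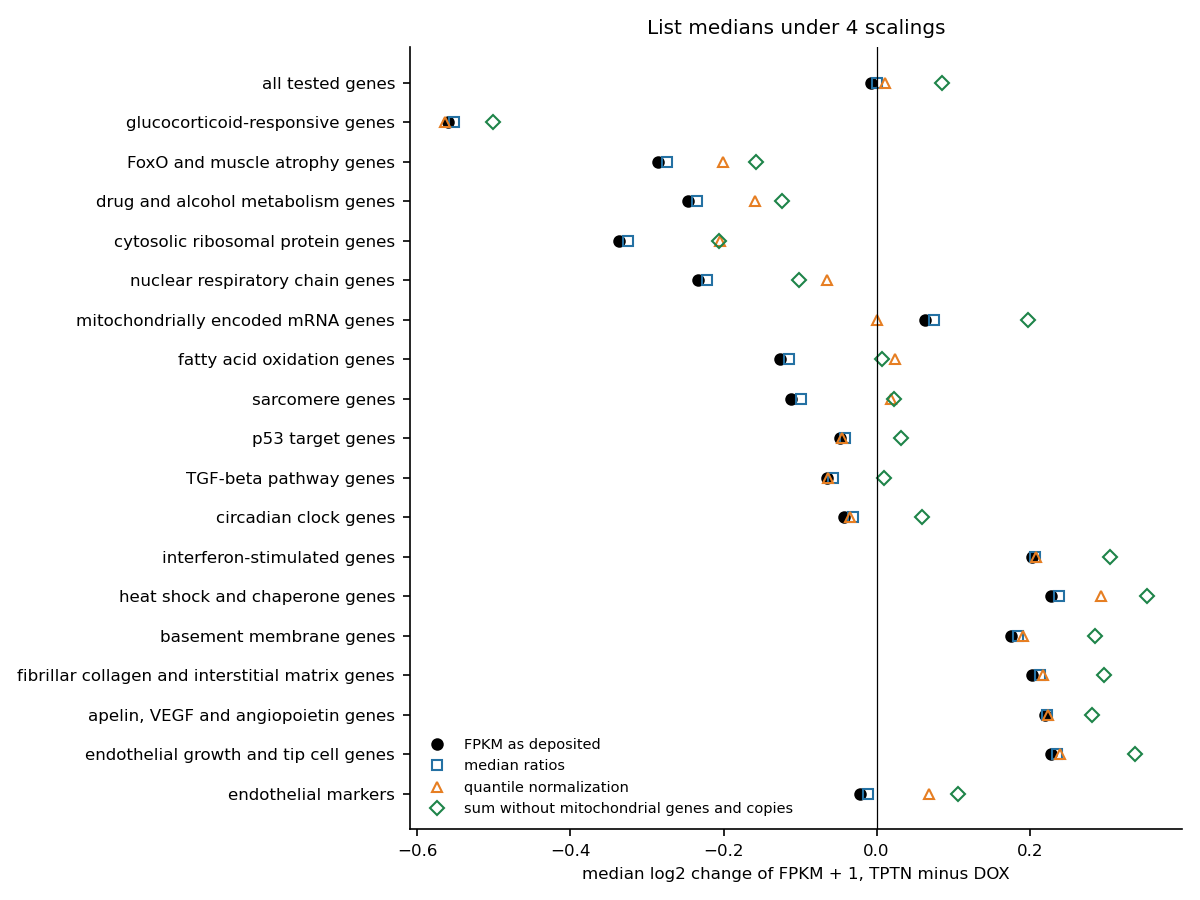
Median log2 change of FPKM + 1, TPTN minus DOX (horizontal axis), of all tested genes and of 18 lists under 4 scalings of the libraries (symbols). The glucocorticoid-responsive, FoxO, drug metabolism and ribosomal protein medians stay below 0 and the matrix, apelin, tip cell, heat shock and interferon medians above 0 under each scaling, while the fatty acid oxidation, sarcomere, p53, TGF-beta and clock medians cross 0 with the sum without mitochondrial genes and copies.

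Gene positions for the members with the largest changes are those of GRCm38. Adh1 (ENSMUSG00000074207) lies on chromosome 3 from 138260991 to 138290698, Sult1a1 (ENSMUSG00000030711) on chromosome 7 from 126672865 to 126676432 and Timp4 (ENSMUSG00000030317) on chromosome 6 from 115241892 to 115252205. Aplnr (ENSMUSG00000044338) lies on chromosome 2 from 85136225 to 85139923, Apln (ENSMUSG00000037010) on chromosome X from 48025146 to 48034853 and Ccnd1 (ENSMUSG00000070348) on chromosome 7 from 144929931 to 144939925. Per1 (ENSMUSG00000020893) is the chromosome 11 gene whose upstream window is printed above.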

How the data were processed

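Polyadenylated RNA of mouse hearts was sequenced in 9 stranded libraries, per the labels' protocols. The authors' deposited table holds FPKM per gene. The submitters' processing notes list the mouse build GRCm38 and the tools HISAT2 2.0.4, StringTie 1.3.4d, cutadapt 1.9, edgeR and DESeq2, with no role given for any of them. Whether reads were assigned by strand is not given in the sources used here. The table's p-value, q-value and yes or no columns were not used. Whole fragments could not be recovered from low values (15.6 to 18.4% were multiples of 1 fragment within a tolerance of 0.05), so depth is unknown.

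Values were tested as log2(FPKM + 1), a scale that understates changes of low genes, in genes with a mean of at least 0.5 FPKM. A limma 3.58.1 fit (R 4.3.3) held 1 mean per group over all 9 libraries (6 residual degrees of freedom), with a trend and robust estimation. The threshold was a Benjamini-Hochberg adjusted p under 0.05 over 12500 genes. Gene lists (61, of which 15 of cell type markers) are described by counts and medians, without a set test. The lists, and this comparison itself, were chosen with earlier results of these data known. Named genes are the 15 rises and 15 falls of largest log2 change (no overlap, at least 5 FPKM in a group), the 5 of each direction with the largest FPKM difference, up to 4 members of each list with the smallest p and its first 6, and 18 cardiomyopathy genes. Genes outside this rule were chosen after their values were seen: Klf15, Cebpd, Fam107a, Nr3c1, Mt1, Mt2, Dusp1, Errfi1, Dbp, Cyp27a1, Gstm1, Angpt1, Angpt2, Nid1, Nid2, Lamc1, Loxl1, Loxl2, Thbs4, Ccn1, Mcm2, Mcm5, Mcm6, Mki67 and Cdk1. Values of 1 named gene are not reported here. Positions come from GENCODE M21, in which 29154 of 29237 identifiers were found, and promoter windows from RefSeq, with 8922 tested genes matched by symbol. The fit was tested on simulated data. Plots used matplotlib 3.10.9 and tables pandas 2.3.3 with numpy 2.4.6 under Python 3.11.15. Other settings were a fit of only DOX and TPTN, a pseudocount of 0.1, a block for the replicate number, no robust estimation, a minimum of 1 FPKM or none, 3 other scalings, a minimum absolute log2 change of 0.5, each library left out, and, chosen after seeing the data, control replicate 3 and TPTN replicate 1 left out together.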

Additional observations from a re-analysis of the deposited data

How the results depend on the processing

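The counts of 99 higher and 308 lower genes kept within 1.5 times of these values with only DOX and TPTN in the fit (93 and 219), no robust estimation (89 and 266), a pseudocount of 0.1 (97 and 313) and a minimum mean of 1 FPKM (118 and 358). With no filter on low values 0 genes were higher and 2 lower in limma. The scalings gave 149 and 280 (median ratios), 173 and 163 (quantile normalization) and 542 and 129 (sum without mitochondrial genes and copies). A minimum absolute log2 change of 0.5 left 40 and 88. Leaving out 1 library at a time gave 9 to 162 higher and 31 to 330 lower genes. Without control replicate 3 and TPTN replicate 1, the libraries with the most small RNA (644 and 930 FPKM, against 126 to 435 in the others), 1 gene was higher and 5 were lower. The replicate number as a block gave 37 and 122. Deviations of same-numbered DOX and TPTN libraries from their group means had correlations of -0.03, 0.02 and -0.04 across genes. What the replicate numbers stand for is not given, and whether they mark a batch was not tested. The cause of these moves was not tested. Of the 82 named genes past the threshold, 81 were lost with no filter, 39 with the block, 25 with quantile normalization, 9 with median ratios, 17 with the sum without mitochondrial genes and copies and 3 to 67 without a single library, and 0 reversed. Depth is unknown, so no detection limit can be given.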
